A study of Mus musculus with 6 samples.

Results

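The genes described here are 10 genes of ovarian steroid hormone synthesis and of the hormone receptors of luteal cells, namely Cyp11a1, Star, Hsd3b1, Cyp17a1, Fdx1, Fdxr, Mgarp, Lhcgr, Prlr and Insl3. They lie on 11 of the 41345 probe sets of the array. The platform annotation gave 7 of these probe sets to 6 of the genes, with 2 for Cyp11a1. It gave 1 further probe set to Jak3 and Insl3 together, so a value there cannot be assigned to Insl3. Lhcgr, Prlr and Fdxr were named by the symbols in the authors' deposited table, because the annotation supplied for this work does not list their 3 probe sets. That table holds only probe sets at 1.5-fold or more between the populations, so these 3 genes could be named only because they differed. They are described but are left out of the counts below.

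The ovarian surface epithelium, the outermost cell layer of the ovary, was taken from Lgr5-eGFP-CreERT2 females aged 8 to 12 weeks. In this line EGFP and an inducible Cre recombinase are expressed from the Lgr5 locus, and no treatment was given. Cells were sorted by EGFP brightness, low or high, and each population was run on 3 arrays, with 8 mice pooled per array. The design text calls the 3 arrays of a population technical replicates, so the spread between them, and every p-value below, may be technical and need not reflect animals. With 6 arrays in all, their number limits the precision. No unsorted tissue and no EGFP-negative ovary cells were analysed here.

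Steroid hormones are made from cholesterol. The Star protein brings cholesterol into the mitochondrion, where the Cyp11a1 enzyme cuts it to pregnenolone with electrons passed from Fdxr through Fdx1, and Hsd3b1 then turns pregnenolone into progesterone. In the ovary, theca cells use Cyp17a1 to make androgens, granulosa cells turn these into oestrogens, and the corpus luteum makes progesterone under luteinizing hormone, received by Lhcgr, and in rodents prolactin, received by Prlr. The surface epithelium lies outside these endocrine compartments.

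The deposited values were log2 RMA expression, with array medians from 3.76 to 3.85. Every value of high 2 lay midway between those of high 1 and high 3. Every value of low 1 was the average of low 2 and low 3 with 0.75 times the gap from high 1 to high 3 added, both to within 2e-04 on all probe sets. The 6 columns thus hold 4 dimensions, and the 6 values of a gene are not 6 separate readings. The fit therefore carried a term for 3 array sets, inferred from these relations (the first being low 1 and high 1, the second high 3 with the other 2 low arrays, and the last high 2), which no label gives. The 2 contrasts that follow are high 1 minus low 1, and high 3 minus the average of the other 2 low arrays. Lgr5, the sorted locus, was higher in EGFP-high by 1.10 (95% limits 0.56 to 1.63) and by 1.48 (0.96 to 2.01) on its 2 probe sets, which checks the labels. The 12 surface epithelium markers averaged from 9.14 to 9.20 in the low and from 9.39 to 9.46 in the high arrays.

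Most of the machinery that turns cholesterol into progesterone was lower in the EGFP-high cells, while Star was not. Cyp17a1 read near the array medians in both populations, so a fall there could have been missed. Of the 7 probe sets that the annotation names, 4 were at least 1.5-fold lower (Cyp11a1, Hsd3b1, Mgarp and Fdx1), against 5.79% of all probe sets, and 0 were as much higher. At least 4-fold lower were 3 of the 7, against 0.102% of all. Their median difference was −1.10 on the log2 scale, beside −0.005 over all probe sets. Earlier results of these data were known when the genes were chosen, so these counts describe the genes and are no test of them. For Cyp11a1, Hsd3b1, Mgarp, Lhcgr and Prlr the high arrays read from 1.78 to 4.35, near or below the array medians. Presence cannot be read at that level, so the folds of these genes describe the array values and do not measure how much transcript was left. In bulk sorted cells, fewer cells of a type and less transcript per cell cannot be told apart.

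With the array-set term and all probe sets, limma called 0 probe sets lower, 0.0% of 41345, and 0 higher, with 1987 at an unadjusted p under 0.05 and a smallest adjusted p of 0.337. No member was called in that fit. With 1 probe set per gene it called 1 gene of 22180 lower (0.00451%), and that gene was Cyp11a1. With group as the only term it called 874 probe sets lower (2.11%), among them Cyp11a1, Hsd3b1 and Lhcgr. That fit counts 4 residual degrees of freedom where the columns allow 2.

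**Figure D1:**
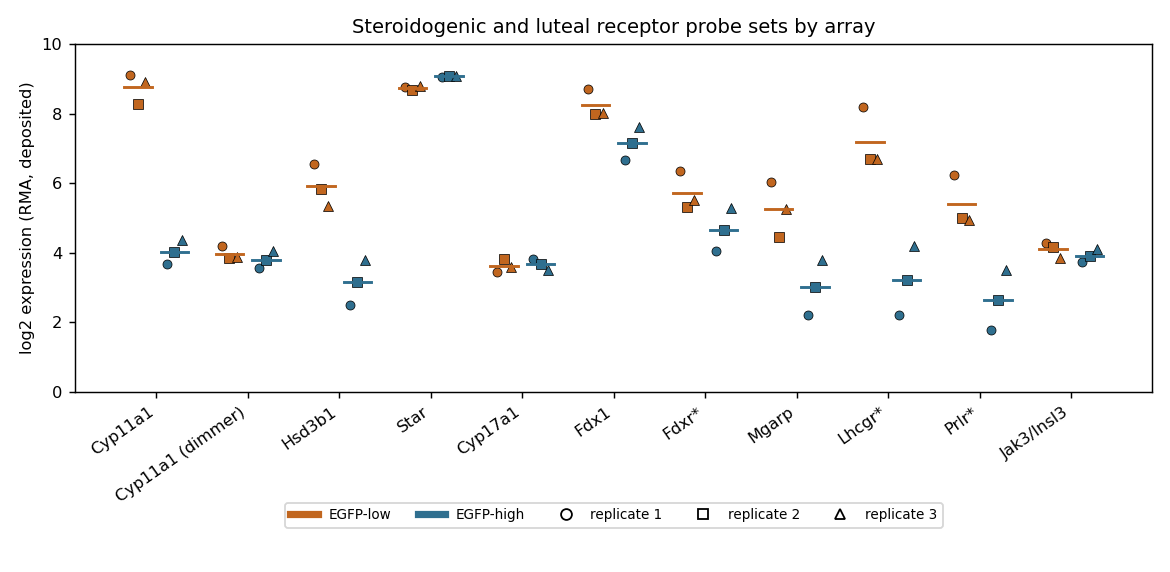
Deposited log2 expression of each of the 11 probe sets on each array, with EGFP-low in orange, EGFP-high in blue, a symbol for each replicate and a bar at the mean of 3. Genes with an asterisk were named by the authors' table. Cyp11a1 lies between 8.26 and 9.09 in the low and between 3.68 and 4.35 in the high arrays, while Star lies between 8.67 and 9.09 in all 6.

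Cyp11a1 had the most negative difference of all probe sets on the array. It encodes the cholesterol side-chain cleavage enzyme, which carries out the first and rate-limiting enzymatic step of steroid synthesis. Its brighter probe set read 9.09, 8.26 and 8.92 in the low and 3.68, 4.02 and 4.35 in the high arrays. The 2 populations were 3.91 apart at their nearest arrays, several times the spread within either. The difference was −4.74 (−5.69 to −3.79), a 26.7-fold lower level. Limma gave an adjusted p of 0.389 over all probe sets, 0.014 with 1 probe set per gene and 0.00626 with group alone. An exact two-sided permutation test of 3 against 3 arrays gave p = 0.1, the smallest this design allows, and since some columns follow from others the arrays cannot be treated as exchangeable.

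The other Cyp11a1 probe set was dim in both populations. It read 4.20, 3.84 and 3.86 in the low and 3.57, 3.8 and 4.03 in the high arrays. The populations overlapped, and the difference was −0.17 (−0.84 to 0.50). The files do not say which part of the gene either probe set covers. RefSeq places 2 transcript starts in Cyp11a1, whose upstream windows (250 bases before to 50 after the start, GRCm38.p6) are shown here because the gene had the most negative difference. They lie at chr9:57997774-57998073 and chr9:58014702-58015001, both on the plus strand. Capitals mark AGGTCA, the core motif bound by nuclear receptors such as Nr5a1 and Nr5a2.
Cyp11a1 upstream start: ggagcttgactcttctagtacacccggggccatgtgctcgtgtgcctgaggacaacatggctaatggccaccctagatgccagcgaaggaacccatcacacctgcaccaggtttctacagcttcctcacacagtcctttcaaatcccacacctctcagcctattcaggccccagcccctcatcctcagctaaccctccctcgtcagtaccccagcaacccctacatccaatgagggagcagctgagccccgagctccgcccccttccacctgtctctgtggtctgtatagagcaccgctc
Cyp11a1 downstream start: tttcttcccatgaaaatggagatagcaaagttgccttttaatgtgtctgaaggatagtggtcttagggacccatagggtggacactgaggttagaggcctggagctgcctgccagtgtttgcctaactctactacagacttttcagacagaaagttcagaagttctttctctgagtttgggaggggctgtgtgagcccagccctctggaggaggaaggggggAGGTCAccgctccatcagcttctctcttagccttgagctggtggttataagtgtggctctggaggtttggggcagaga

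Hsd3b1, the 3-beta-hydroxysteroid dehydrogenase of mouse gonads and adrenal, was lower as well. It read 6.56, 5.83 and 5.34 in the low and 2.50, 3.15 and 3.79 in the high arrays. Every high array was below every low array, with 1.55 between the nearest. The difference was −2.76 (−4.16 to −1.37), a 6.80-fold lower level, with limma adjusted p = 0.958 over all probe sets and 0.0345 with group alone. Mouse has several close copies of this gene, and probes can be shared among them. On the probe sets that the annotation gives to 1 copy alone, Hsd3b2 differed by 0.04, Hsd3b3 by −0.58, Hsd3b5 by −0.18 and Hsd3b6 by 0.02. Only Hsd3b3 among those 4 had populations that did not overlap. All 4 read near or below the array medians in both populations, so they cannot show whether those copies changed.

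Star, the cholesterol carrier that feeds Cyp11a1, read 8.76, 8.67 and 8.78 in the low and 9.05, 9.07 and 9.09 in the high arrays. All 3 high arrays were above all 3 low arrays, as for 16.3% of all probe sets. The difference was 0.33 (−0.17 to 0.84), with limma adjusted p = 0.958. The interval holds neither the Cyp11a1 nor the Hsd3b1 difference. Star had the smallest spread of the 11 probe sets, with SDs of 0.06 and 0.02 (n = 3 each).

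Cyp17a1, the androgen-forming enzyme of theca cells, read 3.46, 3.82 and 3.58 in the low and 3.83, 3.66 and 3.50 in the high arrays. The populations overlapped and the difference was 0.04 (−0.57 to 0.66). All 6 values lay near the array medians, and without detection calls whether the transcript was present cannot be read from them. The probe set shared by Jak3, a cytokine receptor kinase of lymphocytes, and Insl3, a relaxin-family hormone of theca and Leydig cells, read 4.29, 4.15 and 3.86 in the low and 3.73, 3.91 and 4.10 in the high arrays. Its populations overlapped too, with a difference of −0.18 (−0.84 to 0.47).

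The electron donors of Cyp11a1 had smaller differences than the enzyme. Fdx1, the ferredoxin, read 8.71, 7.99 and 8.02 in the low and 6.67, 7.14 and 7.61 in the high arrays. Fdxr, the reductase that charges it, read 6.34, 5.30 and 5.52 in the low and 4.04, 4.66 and 5.27 in the high arrays. The populations did not overlap for either gene, but the nearest arrays were only 0.38 apart for Fdx1 and 0.03 for Fdxr. Fdx1 was lower by a difference of −1.10 (−2.14 to −0.06), or 2.14-fold, and Fdxr by −1.07 (−2.37 to 0.24), or 2.09-fold. Limma gave both an adjusted p of 0.958. Fdx1 also serves mitochondrial P450 enzymes outside steroid synthesis.

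Mgarp, a mitochondrial protein first known in mouse as an ovary-specific acidic protein, read 6.03, 4.44 and 5.26 in the low and 2.22, 3.01 and 3.79 in the high arrays. The nearest arrays were 0.65 apart, within the spread of each population (SD 0.79 in both, n = 3 columns). Since high 2 lies midway between high 1 and high 3, the SD of the high arrays restates only the gap between those arrays. The difference was −2.24 (−3.94 to −0.53), a 4.71-fold lower level, with limma adjusted p = 0.958.

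Both hormone receptors were lower in the EGFP-high cells. Lhcgr, the receptor of luteinizing hormone, read 8.18, 6.68 and 6.70 in the low and 2.21, 3.21 and 4.20 in the high arrays. Its nearest arrays were 2.48 apart and its difference of −3.98 (−5.96 to −1.99), or 15.7-fold, was second in size only to Cyp11a1 among negative differences on the array. Limma gave an adjusted p of 0.958 over all probe sets and 0.0355 with group alone. Prlr, the prolactin receptor, read 6.25, 5.0 and 4.93 in the low and 1.78, 2.64 and 3.49 in the high arrays. Its nearest arrays were 1.44 apart and its difference was −2.75 (−4.48 to −1.03), or 6.74-fold, with limma adjusted p = 0.958. Of the 7 probe sets named by the annotation, every high array was below every low array for 4 (Cyp11a1, Hsd3b1, Fdx1 and Mgarp), against 15.5% of all probe sets, and the same order held for Lhcgr, Prlr and Fdxr.

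The upstream windows of Lhcgr (chr17:88791965-88792264, minus strand) and Hsd3b1 (chr3:98859745-98860044, minus strand) are shown as those of the genes with the next largest differences. Both are written along the gene, with AGGTCA and the GATA-factor motif AGATAA (here its reverse complement) in capitals.
Lhcgr: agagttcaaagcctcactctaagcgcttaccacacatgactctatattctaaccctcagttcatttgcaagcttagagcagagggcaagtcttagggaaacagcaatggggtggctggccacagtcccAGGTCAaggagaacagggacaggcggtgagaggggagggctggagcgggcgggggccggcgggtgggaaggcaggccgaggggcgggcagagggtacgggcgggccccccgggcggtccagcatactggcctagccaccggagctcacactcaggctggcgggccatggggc
Hsd3b1: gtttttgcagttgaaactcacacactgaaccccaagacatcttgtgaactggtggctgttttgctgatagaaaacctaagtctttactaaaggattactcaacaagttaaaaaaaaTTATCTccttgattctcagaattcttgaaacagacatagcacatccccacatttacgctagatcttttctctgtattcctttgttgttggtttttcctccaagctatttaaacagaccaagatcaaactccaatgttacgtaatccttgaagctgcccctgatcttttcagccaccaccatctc

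RefSeq windows were found for 8 of the 10 genes, 11 windows in all. AGGTCA stood in 2 of the 11, both along the gene's own strand, at position −28 from the downstream Cyp11a1 start and at −122 from the Lhcgr start, against 16.3% of 32851 windows of all genes. Its longer form AAGGTCA stood in 0 of the 11, against 4.72% of all. A GATA motif, AGATAA or TGATAA, stood in 4 of the 11 (those of Hsd3b1, Mgarp, Fdx1 and Fdxr), against 18.6%. The cAMP response element TGACGTCA and TATAAA stood in 0 of the 11, against 1.79% and 13.6%, the shorter element TGACG in 2 against 20.8%, and CCAAT in 4 against 37.4%. Both strands were searched, AGGTCA lies within AAGGTCA and TGACG within TGACGTCA. These are matches of letters in short windows and no sign of binding.

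**Figure D2:**
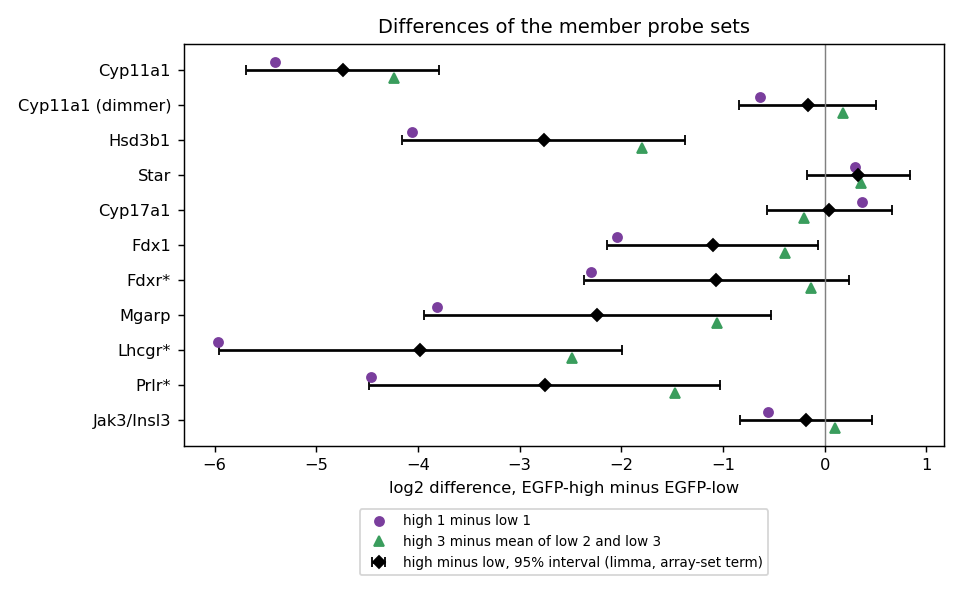
Log2 difference of EGFP-high minus EGFP-low for each of the 11 probe sets (diamonds, with 95% limits from limma with the array-set term), with the difference within each of the 2 array sets beside it. Cyp11a1 is at −4.74 with −5.41 and −4.24 in the sets, while Lhcgr is at −3.98 with −5.96 and −2.49.

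The size of the difference varied between the array sets, which was not tested. Through the column relations, the gap between the 2 contrasts depends only on high 1 and high 3. A larger drop in the first set thus says only that high 1 read below high 3. High 1 minus low 1 was −5.41 for Cyp11a1, −5.96 for Lhcgr, −4.47 for Prlr, −4.06 for Hsd3b1, −3.81 for Mgarp, −2.30 for Fdxr and −2.04 for Fdx1. In the second array set it was −4.24, −2.49, −1.47, −1.79, −1.06, −0.14 and −0.39 in the same order. The first-set values are also those of the fit without high 3, and the second-set values those without low 1 or high 1.

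In all 7 of these probe sets, 4 named by the annotation and 3 by the authors' table, low 1 was the highest and high 1 the lowest of the 6 arrays, as in 33.3% of the 2393 probe sets that were at least 1.5-fold lower. Through the second column relation, a high 1 below high 3 places low 1 above the average of the other low arrays, so this order is 1 observation and not 2. Other cell type markers that were at least 1.5-fold lower did not all have it: 1 of 6 leukocyte, 0 of 2 stroma, 0 of 3 oocyte, 3 of 5 granulosa, 1 of 2 theca and luteal, and 2 of 2 endothelial markers did. The leukocyte gene Lyz2 was lower by −3.95 and −3.64 in the array sets, and the collagen gene Col1a2 by −2.82 and −3.28. Through the column relations, such near equality says only that high 1 and high 3 read nearly alike. The low arrays themselves were apart, with Lyz2 at 8.01 in low 2 and 5.41 in low 3.

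**Figure D3:**
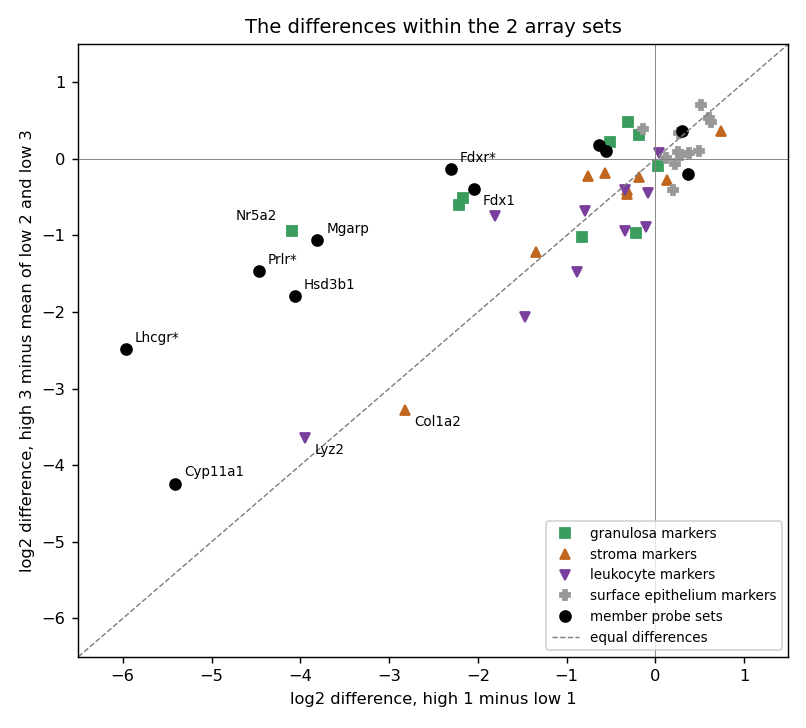
Log2 difference within the first array set (high 1 minus low 1, horizontal) against that within the second (high 3 minus the average of low 2 and low 3, vertical) for the member probe sets and 4 lists of cell type markers, 1 point per probe set or gene. The 7 lower members lie above the dashed line of equal differences, as does the granulosa gene Nr5a2 (−4.10 and −0.94), while Lyz2 and Col1a2 lie close to the line. Through the column relations, a point lies above the line where high 1 read below high 3.

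Most other enzymes of steroid metabolism had small differences, in both directions. Many of them, such as Hsd3b5, Cyp11b1, Cyp11b2, Akr1c14 and Sult1e1, read below the array medians in both populations. A small difference there cannot be read as an unchanged transcript. Of 24 listed enzymes and electron donors with a probe set of their own, 10 were below and 14 above 0, with a median of 0.02. Limma with 1 probe set per gene called 0 in either direction, where it called 1 of all 22180 genes (0.00451%). At least 1.5-fold lower was 1 of 24, and 1 was as much higher, against 2.7% and 2.19% of all genes. The lower one was Hsd17b3, which makes testosterone from androstenedione and read 7.78, 8.19 and 7.44 in the low against 6.80, 6.77 and 6.75 in the high arrays, a difference of −1.03 (−1.77 to −0.29). The higher one, singled out after its value was seen, was Hsd3b7 of bile acid synthesis at 0.62 (−0.29 to 1.53). Hsd17b2, which inactivates oestradiol and testosterone, differed by 0.45 (−0.07 to 0.97), and the adrenal 11-beta-hydroxylase Cyp11b1 by −0.48 (−1.11 to 0.16).

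Enzymes that mark other steroidogenic states had differences near 0, but Akr1c18 and Hsd17b1 read near or below the array medians in both populations. Presence cannot be read at that level, so these differences do not show that the transcripts were unchanged. Akr1c18, which breaks down progesterone when the rodent corpus luteum regresses, differed by −0.09 (−0.87 to 0.69), and Hsd17b1, the oestradiol-forming enzyme of granulosa cells, by −0.04 (−0.67 to 0.59). Cyp19a1, the aromatase, has no probe set of its own in the annotation and was not analysed here. Outside the counts, the authors' table names a probe set for Srd5a2, a 5-alpha-reductase, which was higher in the value table by 0.84 (0.23 to 1.46), and one for the aldo-keto reductase Akr1b7, lower by a difference of −0.77 (−1.5 to −0.05). Like Lhcgr, both could be named only because they differed.

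The transcription factors of steroidogenesis were split. Of 18 listed regulators, 7 were below and 11 above 0, with a median of 0.02. Limma with 1 probe set per gene called 0 of them, where it called 1 of all 22180 genes (0.00451%). At least 1.5-fold lower were 2 of 18, and 1 was as much higher, against 2.7% and 2.19% of all genes. Nr5a2 (LRH-1), a nuclear receptor of granulosa and luteal cells, read 7.39, 5.33 and 6.75 in the low and 3.29, 4.19 and 5.10 in the high arrays. It was lower by a difference of −2.29 (−4.38 to −0.21), with 0.23 between its nearest arrays. Its relative Nr5a1 (SF-1), the general activator of steroidogenic genes, read 6.16, 6.43 and 5.79 against 6.11, 6.14 and 6.17, a difference of 0.01 (−0.68 to 0.69). Nr0b1 (DAX-1), a repressor of Nr5a1, was higher by 0.94 (0.38 to 1.51), the granulosa factor Foxl2 differed by −0.65 (−1.31 to 0.02) and the immediate early receptor Nr4a1 by 0.29 (−0.23 to 0.81). In limma with 1 probe set per gene, the adjusted p of Nr0b1, Nr5a2, Foxl2 and Nr4a1 was between 0.751 and 0.876 and that of Nr5a1 was 0.997. Over all probe sets, the fit that gives the intervals here, Nr0b1, Nr5a2, Foxl2 and Nr4a1 had a limma adjusted p of 0.958. Outside the counts, the authors' table names 2 probe sets for Runx2, a transcription factor induced in luteinizing follicles, which were lower by differences of −0.94 (−1.65 to −0.23) and −2.03 (−3.92 to −0.14) in the value table. The second differed by −3.88 and −0.64 in the 2 array sets, and Runx2 too could be named only because it differed.

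Partners of the receptors were mostly near 0 too. Of 25 listed signalling genes, 10 were below and 15 above 0, with a median of 0.12. Limma with 1 probe set per gene called 0 of them, where it called 1 of all 22180 genes (0.00451%). Those at least 1.5-fold lower were 3 of 25, against 2.7% of all genes. They were Fshr, Ptgfr and Prkar2b. Fshr, the receptor of follicle-stimulating hormone on granulosa cells, differed by −1.22 (−2.31 to −0.13). Ptgfr, the prostaglandin receptor that triggers luteal regression, differed by −1.12 (−2.55 to 0.31), with 5.64 in low 2 and 3.81 in low 3. Prkar2b, a regulatory subunit of protein kinase A, differed by −1.03 (−1.85 to −0.21). Their high arrays read from 2.16 to 3.79, near or below the array medians, so these folds do not measure how much transcript was left. Socs2, an inhibitor of growth hormone and prolactin signalling, was the 1 gene at least 1.5-fold higher, against 2.19% of all genes, at 0.73 (−0.07 to 1.53).

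**Figure D4:**
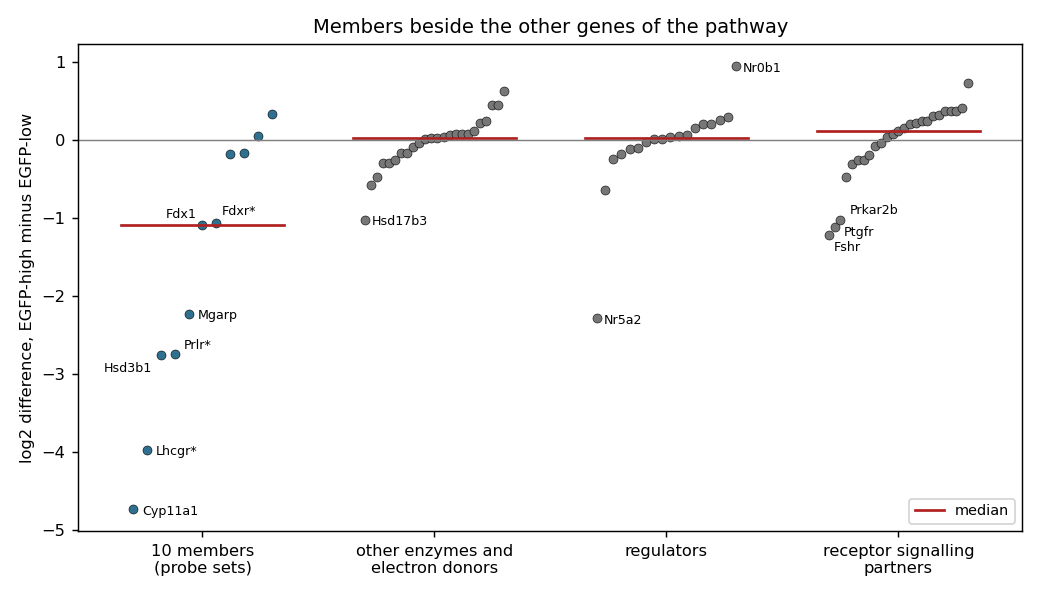
Log2 difference of EGFP-high minus EGFP-low for the 11 member probe sets and for the genes of the 3 lists of other pathway genes (24, 18 and 25 genes), each sorted, with a red bar at the median. The lists have medians of 0.02, 0.02 and 0.12, against −1.10 for the 7 member probe sets named by the annotation. Many listed enzymes read below the array medians, where a small difference cannot be read as an unchanged transcript. The 3 with an asterisk could be named only because they differed.

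Most granulosa, leukocyte and stroma markers were lower in the same arrays, while endothelial and oocyte markers were split in direction (medians 0.04 and −0.05). Of 9 granulosa markers, 7 were below 0 and 5 at least 1.5-fold lower, and their average was from 4.54 to 4.93 in the low and from 3.77 to 4.23 in the high arrays. Of 10 leukocyte markers, 9 were below 0 and 6 at least 1.5-fold lower (averages 4.24 to 5.07 and 3.53 to 3.62), and of 9 stroma markers 8 and 2 (4.92 to 5.43 and 4.52 to 4.55). Of 8 theca and luteal markers that are not members, 6 were below 0, with a median of −0.13. Only 2 were at least 1.5-fold lower, Ptgfr and the secreted protein Sfrp4 at −3.41 (−5.04 to −1.78). The others lay between −0.39 for Parm1 and 0.39 for Aldh1a1. Of 5 endothelial markers, 2 were below 0 and 2 at least 1.5-fold lower, and of 7 oocyte markers 4 and 3. Of all genes, 2.7% were at least 1.5-fold lower. Log2 array values have no true 0, so an absent marker cannot be told from a dim one, and the part of these cells in the lower values of the steroidogenic genes was not tested.

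Among the genes searched, those with profiles most like that of Cyp11a1 over the 6 arrays came from several of these groups. Likeness was the Euclidean distance between log2 profiles, each less its own mean, over 22180 genes. The Cyp11a1 profile itself has a length of 5.86. Profiles were not scaled, so this likeness largely follows the size of the difference, which was from −2.52 to −3.77 for the nearest 5. The nearest 5 were Sfrp4 (distance 2.30), Hsd3b1 (2.62), Lyz2 (2.63), Col1a2 (2.75) and Cemip (3.04), a hyaluronan-binding protein. Only Hsd3b1 among them is a member, but Lhcgr, Prlr, Fdxr and Insl3 are not among the 22180 genes and could not appear. For Star, whose profile has a length of 0.41, they were Kbtbd3 (0.007), Nfya (0.02), Ucp1 (0.02), Kcne3 (0.02) and Ppfibp2 (0.03). None of these is a member.

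In the authors' deposited table, 7 of the 11 probe sets appear, all lower in EGFP-high. Its folds, from the authors' deposited table, were 23.9 for Cyp11a1 and 16.8 for Lhcgr, the first and second of 629 lower probe sets. They were 9.14 for Hsd3b1, 6.52 for Prlr, 4.31 for Mgarp, 2.12 for Fdx1 and 1.97 for Fdxr in the authors' deposited table, which gives no p-value. These folds are not those of the deposited values: on the log2 scale the Hsd3b1 ratio of the authors' deposited table is −3.19, against −2.76 here. Of its 1134 probe sets, 328 were under 1.5-fold in the value table, where 3926 reach that size.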

How the data were processed

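The 6 arrays carried amplified, biotin-labelled cDNA of sorted cells on Affymetrix Mouse Gene ST 2.0 arrays. Per the submitters' processing notes, the authors used Affymetrix Expression Console and RMA, without versions, to make the deposited log2 values. Their genome build and annotation are not given in the sources used here. A comparison table from the authors holds a linear ratio of high over low and a signed fold (a score below 0 where high is lower), as deposited, and it was used for names and folds only. No value column lacked a sample.

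High minus low was fitted with limma 3.58.1 (R 4.3.3) by its moderated two-sided test, with Benjamini-Hochberg adjusted p-values and a threshold of 0.05, over all 41345 probe sets, with terms for group and array set. This leaves 2 residual degrees of freedom. Intervals are 95% limits of that fit, not adjusted for the number of probe sets. No filter or further normalization was applied. The annotation gave 1 symbol for 23521 probe sets, several for 1820 and none for 16004. Listed genes were matched through Entrez identifiers to current RefSeq symbols, and the probe set with the highest mean was taken, which gave 22180 genes. Of 138 list entries, 127 matched.

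All 10 genes are named, with the 4 genes of smallest p in each pathway list, the 5 genes nearest to Cyp11a1 and to Star, and 7 set genes (Lgr5, Nr5a1, Nr5a2, Cyp19a1, Akr1c18, Hsd17b1 and Fshr). The other Hsd3b copies, Srd5a2, Akr1b7 and Runx2 were singled out after their values were seen. Genes, lists and the array-set term were chosen with earlier results of these data known. Whether the replicate numbers in the titles pair the samples cannot be read from the values, and they were not used as pairs. The deviations of low 1 and high 1 correlated at −1, which follows from the column relations, and high 2 has none. Those of low 3 and high 3 correlated at −0.28, a value that the same relations also shape. Alternatives were group alone, a replicate block, 1 probe set per gene, no dim probe sets, median centring, quantile normalization, eBayes with trend, and each array left out.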

Additional observations from a re-analysis of the deposited data

How the results depend on the processing

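The fit gave 0 calls in the main form and under the replicate block (smallest limma adjusted p 0.0743), without dim probe sets, under both normalizations, with trend, and without each array in turn (0 in each). It gave 1715 with group alone and 1 with 1 probe set per gene. The median difference of the 7 annotated probe sets, −1.10 in the main fit and with the replicate block as a term, was −1.67 with 1 probe set per gene, which drops the dim Cyp11a1 probe set, and without dim probe sets, which drops Cyp17a1. Without 1 array it ranged from −2.04 without high 3 to −0.39 without low 1 or without high 1, which are the same fit. The count at least 1.5-fold lower stayed between 3 and 5 of 7, and was 7 of 11 with the probe sets named by the authors' table. The directions of Cyp11a1 (brighter), Hsd3b1, Fdx1, Fdxr, Mgarp, Lhcgr, Prlr and Star held under every alternative run on them. Only the normalizations and the fits without an array other than high 2 could move these differences. The other alternatives left each difference as in the main fit. Without 1 array, the dim Cyp11a1 probe set ranged from −0.63 to 0.18, Cyp17a1 from −0.20 to 0.37 and Jak3/Insl3 from −0.56 to 0.10. The exact permutation p of Cyp11a1 was 0.1 under both normalizations, chosen after seeing the data. Fdx1 ranged from −2.04 to −0.39 and Fdxr from −2.30 to −0.14, and Hsd3b1, Mgarp, Lhcgr and Prlr also moved by over 1.5 times without low 1 or high 1.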
